A study of Homo sapiens with 6 samples.

Results

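The mitochondrial ribosomal protein (MRP) genes encode the proteins of the mitoribosome, and their members were taken as the entries of the authors' deposited comparison whose symbol begins with MRPL or MRPS and a digit, without a hyphen. This gave 35 of the 6831 genes in that table, 33 protein-coding genes and 2 pseudogenes. RefSeq holds 77 protein-coding genes under such symbols, so 44 were not listed under them. The samples were MOLM-13 cells, an established human acute myeloid leukaemia line of wild-type genotype in the labels, given 50 nM DEG-35 for 24 h or, as controls, the solvent DMSO for the same 24 h. DEG-35 is named by the study as a degrader of the transcription factor IKZF2 and the kinase CK1α. There were 3 RNA-seq libraries with DEG-35 and 3 with DMSO, and the comparison asks which genes DEG-35 regulates.

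The deposited table lists genes with an adjusted p below 0.05, each with its log2 fold change and p-values, and no value per library, so depth is unknown and levels in single samples cannot be shown. Its header does not name the numerator. Directions are read as DEG-35 over DMSO; were DMSO the numerator, each would be the opposite. Errors are implied standard errors (SE), computed from a gene's fold change and p-value. Whether libraries of 1 group came from separate cultures is not in the labels, and the p-values then measure only the spread between these libraries, which may be technical. RNA of a whole culture was measured, so fewer cells of a kind and less RNA per cell cannot be told apart.

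The mitoribosome translates the few messages of mitochondrial DNA, all of which encode subunits of the oxidative phosphorylation complexes. Its ribosomal RNA comes from mitochondrial DNA, whereas its proteins are encoded in the nucleus, made in the cytosol and imported. Some of these proteins have counterparts in bacterial ribosomes and others are found in mitochondria only. MRPL and MRPS stand for the large and small subunit, although the products of MRPS30 and MRPS18A sit in the large one.

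Most listed MRP genes were slightly lower with DEG-35. Of the 77 coding genes 33 were listed (42.9%), beside 45.3% of all tested genes, a background that follows from the 15064 tests implied by the deposited adjusted p-values. Of these, 27 fell (35.1% of the 77), beside 24.0% of all tested genes that fell, and 6 rose (7.79%), beside 21.4% that rose. Shares of the 77 and of the gene lists below count all RefSeq genes, tested or not. The background counts tested genes alone, so these shares may be low beside it. The median log2 fold change of the 33 was -0.27, and that of all 6831 listed genes was -0.19. The split of 27 lower and 6 higher turned to 14 lower and 19 higher, with a median of 0.03, when all log2 fold changes were shifted up by 0.3, to 33 lower and 0 higher when they were shifted down by 0.3, and to 23 lower and 10 higher when they were centred on the median of the listed genes. No source used here gives the scaling factors behind the fold changes.

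The changes were small and measured with similar precision. Absolute log2 fold changes of the 33 coding members lay between 0.17 and 0.49, with a median of 0.28, against a median of 0.47 over all listed genes. The fallers were lower by 11.0% to 28.8% and the coding risers higher by 17.6% to 21.5%. Implied SEs ran from 0.0580 to 0.106, with a median of 0.0733 beside 0.0891 for all listed genes. At that median SE a gene had to change by at least 0.17 on the log2 scale to be listed. An unlisted member of like precision may thus have had an estimated fall of up to 10.9%. This cutoff applies to the estimate and does not bound the true change. At an adjusted p below 0.01, 23 of the 77 coding members stayed listed, 18 lower and 5 higher. That share was below the 36.8% of tested genes that passed the same threshold in either direction. With Bonferroni adjustment over the 15064 tests, 8 of the 77 remained, all lower. That share was also below the 20.9% of tested genes, which counts both directions. No listed coding member reached an absolute log2 fold change of 0.5, whereas 21.3% of tested genes were listed with a change of at least that size; the fold changes of unlisted genes are not known.

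**Figure D1:**
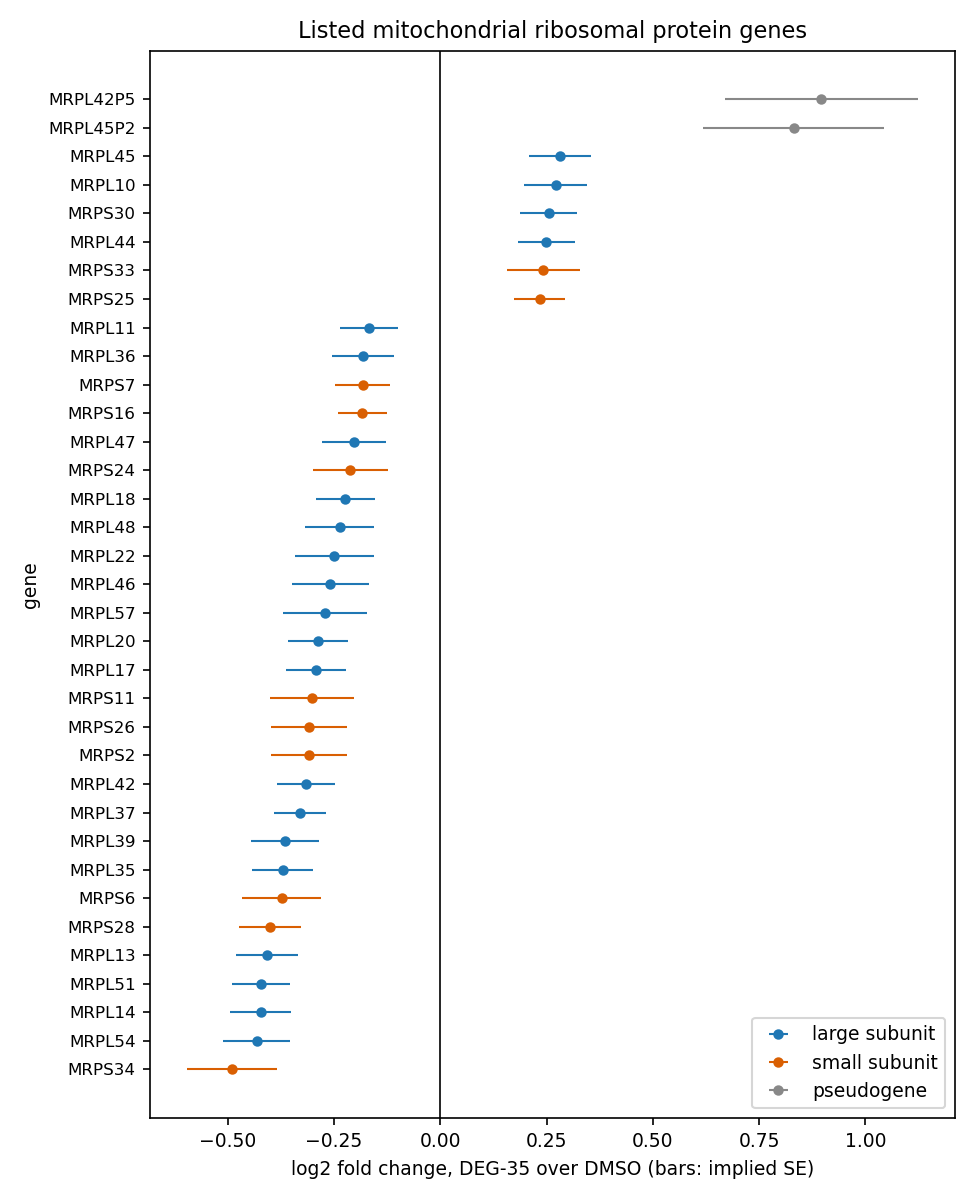
Log2 fold change of DEG-35 over DMSO (x axis) for the 35 listed MRP genes (y axis, ordered by value), with points for the deposited value, bars for the implied SE and colours for the subunit or pseudogenes. The 27 lower genes lie between -0.49 and -0.17, and the 6 coding genes above 0 lie between 0.23 and 0.28; with all values shifted up by 0.3, 14 of the coding genes would be lower.

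**Figure D2:**
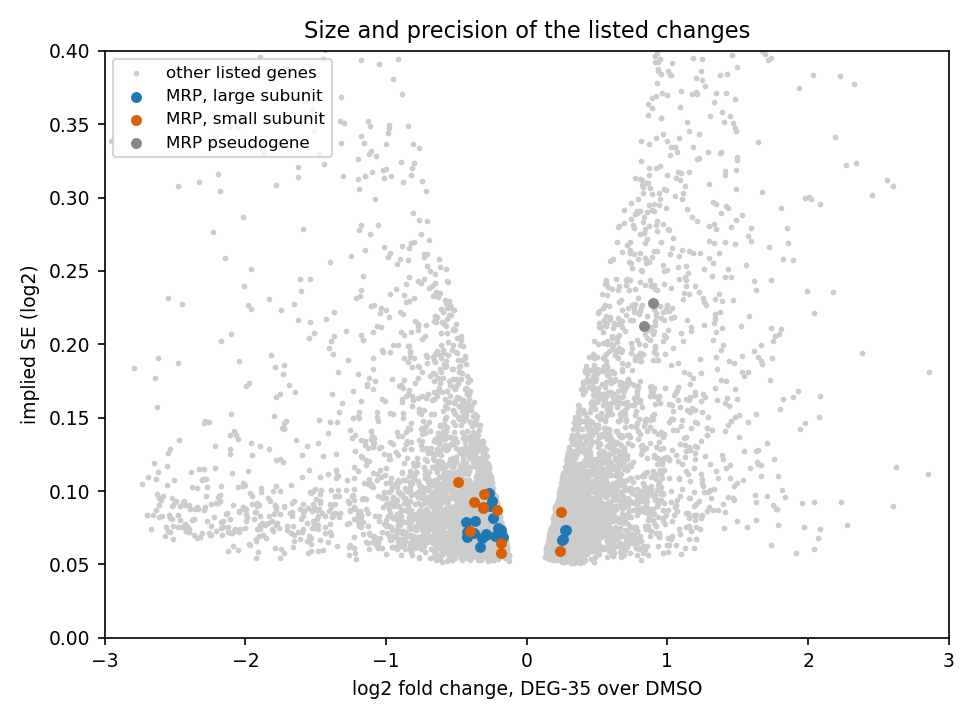
Log2 fold change (x axis) against implied SE on the log2 scale (y axis) for listed genes, with MRP genes in colour and 291 genes outside the plotted range or without an SE left out. Coding MRP genes sit near the lower edge, at SEs of 0.0580 to 0.106, and the 2 pseudogenes sit at 0.213 and 0.228.

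Large and small subunit genes with MRP symbols fell in like shares, 35.3% and 34.6%, beside 24.0% of all tested genes that fell. Of all tested genes 21.4% rose. Under MRP symbols the large subunit has 51 genes, of which 18 fell, 4 rose (7.84%) and 29 were not listed. The listed ones had a median log2 fold change of -0.26, and 8 were lower and 14 higher with all values shifted up by 0.3. MRPL51, which encodes a mitochondria-specific protein, had the smallest adjusted p of the family in the authors' deposited table, at a log2 fold change of -0.42 ± 0.0689 (implied SE, adjusted p = 6.60e-09), 25.4% lower with DEG-35. MRPL14, whose product lies at the interface between the subunits, stood at -0.42 ± 0.0722 in the authors' deposited table (adjusted p = 3.29e-08). MRPL13, which encodes a protein with a bacterial counterpart, was at -0.41 ± 0.0724 there (the authors' deposited table, adjusted p = 1.09e-07). MRPL54, of the stalk region, had a log2 fold change of -0.43 ± 0.0787 in the authors' deposited table (adjusted p = 2.53e-07), the largest fall in the large subunit. MRPL37, another mitochondria-specific member, was at -0.33 ± 0.0616 (adjusted p = 5.20e-07) in the authors' deposited table.

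The 250 bases before the RefSeq start of MRPL51, the faller with the smallest adjusted p, and of MRPL45, the coding gene with the largest rise, are printed from the RefSeq promoter table (GRCh38.p14) because these genes stand for the opposite directions within the family. Capitals mark matches to the motifs searched, which are the ETS-family motif CCGGAAG and its reverse complement CTTCCGG in MRPL51, and the NRF1 motif and the E-box CACGTG in MRPL45.
MRPL51, chr12:6493263-6493512, minus strand: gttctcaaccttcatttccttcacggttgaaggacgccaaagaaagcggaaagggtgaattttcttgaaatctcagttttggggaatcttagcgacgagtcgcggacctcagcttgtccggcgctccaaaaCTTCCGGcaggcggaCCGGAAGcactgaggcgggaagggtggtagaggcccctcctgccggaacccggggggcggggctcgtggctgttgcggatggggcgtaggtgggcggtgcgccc
MRPL45, chr17:38296918-38297167, plus strand: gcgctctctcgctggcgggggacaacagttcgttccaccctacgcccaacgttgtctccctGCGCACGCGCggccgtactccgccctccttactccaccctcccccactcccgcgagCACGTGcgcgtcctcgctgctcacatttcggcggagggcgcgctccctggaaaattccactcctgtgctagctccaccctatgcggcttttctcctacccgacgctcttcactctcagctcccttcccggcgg

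The other lower genes of the large subunit had larger adjusted p-values. MRPL35 at -0.37, MRPL39 at -0.37, MRPL42 at -0.32, MRPL17 at -0.29 and MRPL20 at -0.29 had adjusted p-values of 1.68e-04 or less in the authors' deposited table. MRPL57 at -0.27, MRPL46 at -0.26, MRPL22 at -0.25, MRPL48 at -0.24, MRPL18 at -0.22 and MRPL47 at -0.20 were nearer to the threshold in the authors' deposited table, with adjusted p-values from 0.00394 to 0.0192. MRPL36 stood at -0.18 ± 0.0734 (adjusted p = 0.0303), and MRPL11 at -0.17 ± 0.0685 (adjusted p = 0.0327) had the smallest coding change in the authors' deposited table.

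The 4 risers of the large subunit rose by like amounts. MRPL45, whose product holds the mitoribosome at the inner membrane, was 21.5% higher, at 0.28 ± 0.0733 in the authors' deposited table (adjusted p = 4.62e-04). MRPL10, which anchors the stalk that recruits translation factors, stood at 0.27 ± 0.0737 in the authors' deposited table (adjusted p = 7.95e-04). MRPS30 was at 0.26 ± 0.0671 there (the authors' deposited table, adjusted p = 5.12e-04). MRPL44, whose product has an RNase III-like fold, was at 0.25 ± 0.0664 in the authors' deposited table (adjusted p = 6.11e-04).

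Small subunit genes that changed were also mostly lower. Under MRP symbols the small subunit has 26 genes, of which 9 fell, 2 rose (7.69%) and 15 were not listed. Of all tested genes 24.0% fell and 21.4% rose. Proteins of this subunit under other symbols are counted apart below. The listed MRP genes of the small subunit had a median log2 fold change of -0.30, and 6 were lower and 5 higher with the same shift. MRPS34, which encodes a mitochondria-specific protein, had the largest fall of the family, 28.8%, with a log2 fold change of -0.49 ± 0.106 in the authors' deposited table (adjusted p = 1.79e-05). Its implied SE was also the largest of the coding members. MRPS28 was at -0.40 ± 0.0727 in the authors' deposited table (adjusted p = 2.15e-07). MRPS6 at -0.37, MRPS2 at -0.31, MRPS26 at -0.31, MRPS11 at -0.30, MRPS24 at -0.21, MRPS16 at -0.18 and MRPS7 at -0.18 were also lower in the authors' deposited table, MRPS24 with the largest adjusted p of the family (0.0357). MRPS25 at 0.23 ± 0.0591 (adjusted p = 2.97e-04) and MRPS33 at 0.24 ± 0.0859 (adjusted p = 0.0127) were the risers of this subunit in the authors' deposited table. A test between the subunits was not run, as members had been chosen with results known.

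Members that are not in the table under these symbols did not pass, were not tested or may stand there under an older symbol. In the large subunit they include MRPL1, MRPL2, MRPL3 and MRPL4, whose products have counterparts in bacteria, the stalk genes MRPL12 and MRPL53, and MRPL58, which encodes a peptidyl-tRNA hydrolase built into the mitoribosome. In the small subunit they include MRPS12, whose product lies at the decoding centre, the paralogs MRPS18B and MRPS18C, and the mitochondria-specific MRPS22, MRPS23, MRPS27, MRPS31 and MRPS35.

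Members with and without a bacterial counterpart were counted by the systematic protein names in RefSeq, with the names of MRPS24 and MRPS28 supplied from general knowledge. Among 46 genes for proteins with a counterpart, 17 fell (37.0%) and 1 rose (2.17%), the riser being MRPL10. Among 31 genes for mitochondria-specific proteins, 10 fell (32.3%) and 5 rose (16.1%), the risers being MRPL45, MRPS30, MRPL44, MRPS33 and MRPS25. Of all tested genes 24.0% fell and 21.4% rose. The difference between the classes was seen after the values and not tested. By place in the large subunit, 2 of 5 stalk genes fell and 1 rose, 3 of 7 genes of the central protuberance fell, and 3 of 6 genes around the exit of the peptide tunnel fell and 1 rose, numbers too small to set beside those shares.

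The largest listed rises of the family belonged to pseudogenes. MRPL42P5 stood at 0.90 ± 0.228 (adjusted p = 3.15e-04) and MRPL45P2 at 0.83 ± 0.213 (adjusted p = 3.50e-04) in the authors' deposited table, both with SEs above the 0.106 that no coding member exceeded. MRPL45 rose and MRPL42 fell, so the pseudogene went the way of its parent in the first pair and the other way in the second. Reads of a parent gene and its copy can be assigned to either, and no source used here says how such reads were counted. Without MRPL42, MRPL45 and MRPS24, which shares exons with the listed readthrough gene URGCP-MRPS24, 25 members were lower and 5 higher.

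Several members lie beside or across genes that changed more than they did. In GENCODE release 29, exons of 9 listed coding members, all of them lower, overlap exons of another listed gene. Of the 33 listed coding members 27 were lower, and 45.3% of all tested genes were listed. Overlaps were not counted for unlisted members or for all genes, so these counts have no background share. MRPL51 overlaps the condensin gene NCAPD2 on the other strand, which stood at -1.22 ± 0.0576 in the authors' deposited table. MRPL13 overlaps MTBP on the other strand, at -1.67 ± 0.0919 in the authors' deposited table, and MRPL47 overlaps the chromatin remodeller subunit gene ACTL6A, at -0.72 ± 0.0670. MRPS16 overlaps the histone chaperone gene DNAJC9 on the same strand, at -1.56 ± 0.0659 in the authors' deposited table. It also overlaps DNAJC9-AS1 on the other strand, which was higher, at 0.60 ± 0.177. MRPL37 overlaps CYB5RL, at -0.58 ± 0.110, and SSBP3, at -0.39 ± 0.0806, both on the other strand. MRPS6 overlaps the inositol transporter gene SLC5A3 on the same strand, and both stood at -0.37 in the authors' deposited table. MRPL11 overlaps PELI3 on the other strand, which was higher, at 1.15 ± 0.130 in the authors' deposited table. MRPS7 overlaps GGA3, at 0.21 ± 0.0676, and MIF4GD, at 0.23 ± 0.0905, both higher and on the other strand. No source used here says whether reads were counted by strand, and the part of these neighbours in the members' values was not tested. Without the 9 genes, 18 members were lower and 6 higher (median -0.28).

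Some members also share a promoter region with a neighbour. Within 1000 bases upstream, 13 listed members had the start of a gene on the other strand, in 13 distinct pairs, and in 8 pairs both genes were listed. Both fell in 5 of the 8, and in the other 3 the member fell while its partner rose. The pairs of MRPL37 with CYB5RL, MRPL51 with NCAPD2, MRPS16 with DNAJC9-AS1 and MRPS7 with GGA3 were already named above as exon overlaps. No share of facing pairs over all genes was computed. Of all tested genes 45.3% were listed, 24.0% lower and 21.4% higher. MRPL57 faced the kinetochore gene SKA3, at -2.53 ± 0.0724, and MRPL18 faced the chaperonin gene TCP1, at -0.56 ± 0.0571 in the authors' deposited table. MRPL46 and MRPS11 faced each other, at -0.26 and -0.30. MRPL14 was lower while TMEM63B, on its other side, was higher at 0.26 ± 0.0886 in the authors' deposited table.

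**Figure D3:**
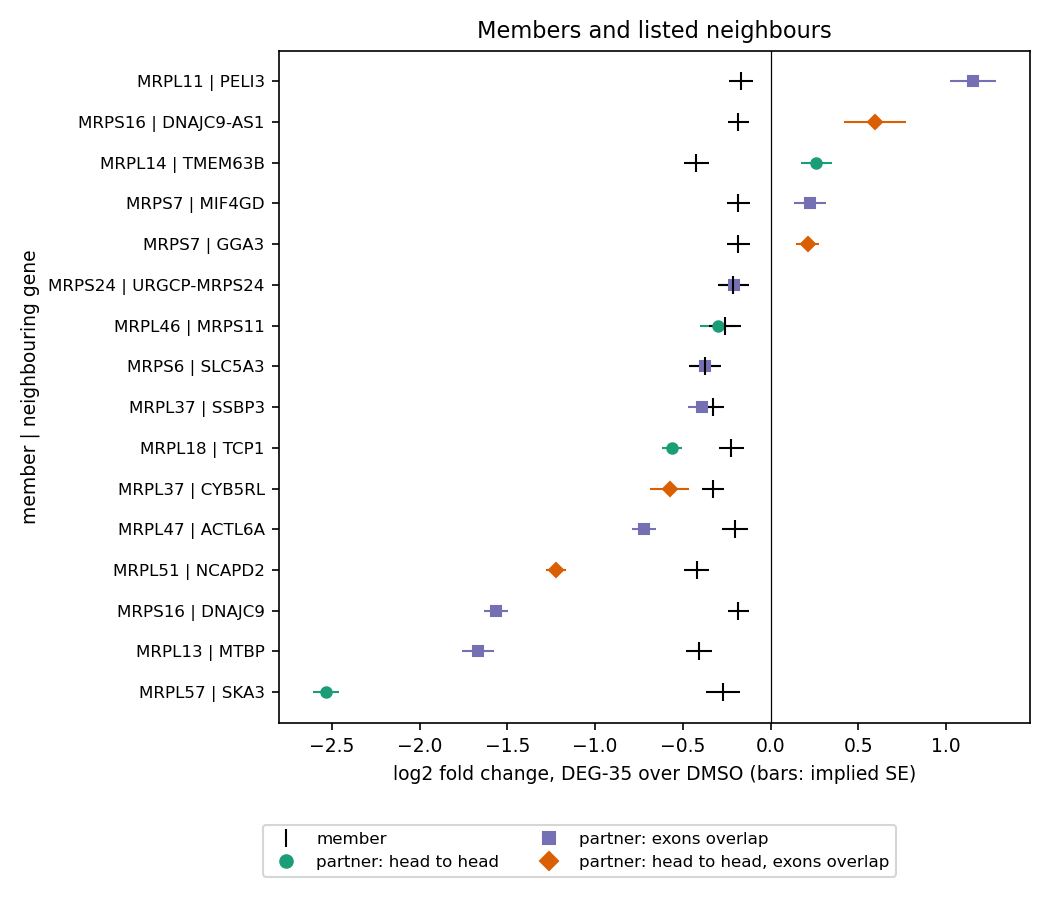
Log2 fold change of DEG-35 over DMSO (x axis, bars for implied SE) of members (black ticks) and of listed neighbours (coloured points) for 16 pairs that face each other or overlap in exons (y axis). Members lie between -0.42 and -0.17, whereas neighbours run from -2.53 for SKA3 to 1.15 for PELI3.

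Promoter windows of 300 bases, 250 before and 50 after the start, were found for 69 of the 77 coding members. The ETS-family motif CCGGAAG, on either strand, stood in 9 of 24 lower members (37.5%), 1 of 5 higher members (20.0%) and 20 of 40 unlisted members (50.0%), and in 16.5% of 15843 coding genes with a window. The YY1 motif AAGATGGCG stood in 20.8% of the lower, 20.0% of the higher and 17.5% of the unlisted members, and in 3.21% of coding genes. The NRF1 motif was held by 4 lower, 2 higher and 3 unlisted members, 13.0% of all 69, and by 9.67% of coding genes. The E-box CACGTG was held by 5 lower, 2 higher and 2 unlisted members, 13.0% of all 69, and by 10.9% of coding genes. The E2F motif TTTCCCGC stood in MRPL42 alone and the CHR motif TTTGAA in 5 of the 69 (7.25%), beside 2.65% and 15.8% of coding genes. A gene with several starts counts once, and such matches are letters in a window, not sites. No motif was set against direction by a test.

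Matches to the ETS motif are shown with their surroundings for 5 lower members and, last, for MRPS33, which was higher, to let the letters be compared across directions (GRCh38.p14, RefSeq promoter table, capitals for the motif or its reverse complement).
MRPS34, chr16:1773187-1773216, minus strand: cctcttcctcgCTTCCGGccgcgaccgaac
MRPL54, chr19:3762650-3762679, plus strand: gccactgacgtCTTCCGGaaacgtgcactt
MRPL20, chr1:1407319-1407348, minus strand: cgaccttcgccCCGGAAGtatcgcaggggc
MRPS26, chr20:3046004-3046033, plus strand: tccccgcgccgCTTCCGGggcacggtggcg
MRPL18, chr6:159790430-159790459, plus strand: gggacttgctaCTTCCGGgtcggtggcgtc
MRPS33, chr7:141014934-141014963, minus strand: agagggcgggcCTTCCGGgacgagggcgcg

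Matches to the YY1 motif are shown for 3 lower members and, last, for MRPS30, which was higher (same source, capitals for the motif).
MRPL42, chr12:93467512-93467541, plus strand: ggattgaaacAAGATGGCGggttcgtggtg
MRPL46, chr15:88467361-88467390, minus strand: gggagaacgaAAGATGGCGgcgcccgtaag
MRPS24, chr7:43869479-43869508, minus strand: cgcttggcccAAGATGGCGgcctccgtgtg
MRPS30, chr5:44808950-44808979, plus strand: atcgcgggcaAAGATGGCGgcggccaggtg

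**Figure D4:**
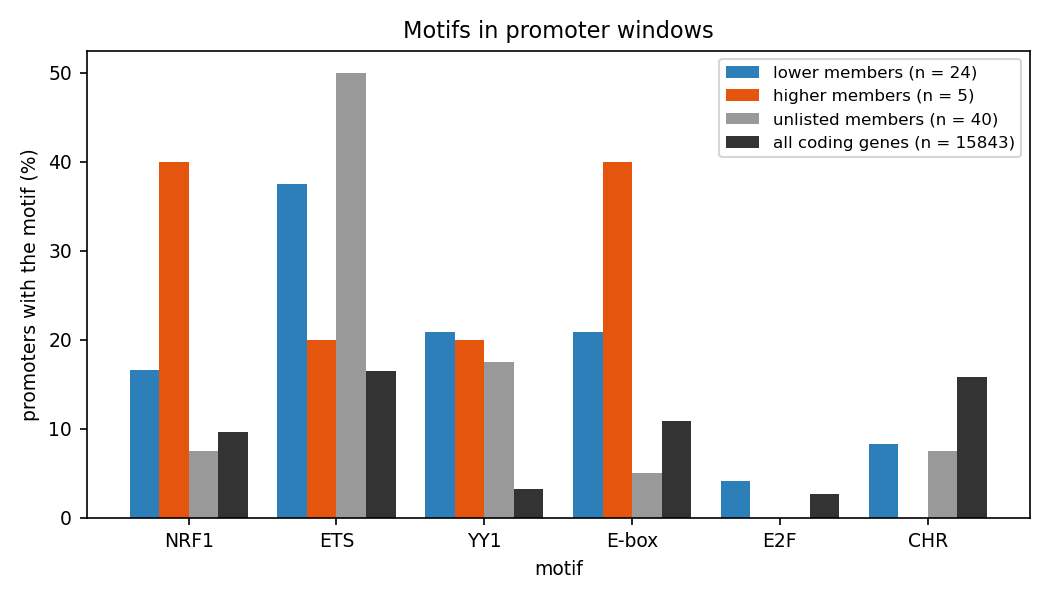
Share of promoter windows holding each motif (y axis, %) for lower, higher and unlisted members and for all coding genes, with the number of genes in the key. The ETS bar is at 37.5% for lower members, 50.0% for unlisted members and 16.5% for all coding genes.

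Mitoribosomal proteins with other symbols were counted apart. All 5 were listed, 3 lower and 2 higher, beside 45.3% of all tested genes that were listed. DAP3, a GTP-binding protein of the small subunit, rose by 0.37 ± 0.0624 on the log2 scale in the authors' deposited table (adjusted p = 2.34e-08), and the RNA-binding PTCD3 stood at 0.23 ± 0.0618. CHCHD1 at -0.24 ± 0.0757, AURKAIP1 at -0.32 ± 0.111 and GADD45GIP1 at -0.33 ± 0.111 were lower in the authors' deposited table. With these 5 added, 30 of 82 mitoribosomal genes fell (36.6%) and 8 rose (9.76%), beside 24.0% and 21.4% of all tested genes. The listed ones had a median of -0.26.

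Genes that serve the mitoribosome did not follow a single direction. The lists below stand beside 45.3% of all tested genes that were listed, 24.0% lower and 21.4% higher. Untested genes, if any, count in the lists but not in this background. Among 16 genes for mitochondrial translation factors and helper proteins, 5 rose (31.2%) and 3 fell (18.8%), with a median of 0.19. The helpers on this list include OXA1L, LRPPRC and SLIRP. All 8 listed genes of the 16 were higher with all values shifted up by 0.3 and all lower with them shifted down by 0.3. OXA1L, the insertase that receives new peptides at the tunnel exit, stood at 0.27 ± 0.0560 in the authors' deposited table, the initiation factor gene MTIF2 at 0.24 ± 0.0683 and the elongation factor gene TSFM at -0.27 ± 0.0645. Of 27 assembly and rRNA modification genes 9 were listed (33.3%), 5 higher and 4 lower. RMND1 was at 0.56 ± 0.0819, MTERF3 at -0.51 ± 0.0895 and MALSU1, an assembly factor that binds the product of MRPL14, at -0.47 ± 0.104, all in the authors' deposited table. Among 17 genes of mitochondrial DNA replication, transcription and RNA processing, 3 fell (17.6%) and 1 rose (5.88%), 23.5% in all and below the background. TFAM, which packages mitochondrial DNA and starts its transcription, fell by 40.5%, at -0.75 ± 0.0637 in the authors' deposited table (adjusted p = 1.45e-30), PNPT1 was at -0.29 ± 0.0683, and POLG2, the accessory subunit of the mitochondrial DNA polymerase, was at 0.49 ± 0.0769. Of 19 mitochondrial aminoacyl-tRNA synthetase genes 5 were listed (26.3%, also below it), 3 lower and 2 higher, with GARS at -0.32 ± 0.0608 and HARS2 at 0.57 ± 0.0785 in the authors' deposited table.

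Cytosolic ribosomal protein genes, counted by the same kind of symbol rule with paralogs, stood mostly on the other side of 0. There were 83 such genes, of which 68 rose and 2 fell, the median of the listed ones was 0.32, and 45 of them stayed higher with all values shifted down by 0.3. The lower ones were the paralog RPL39L, at -1.54 ± 0.215, and RPS26, at -0.22 ± 0.0609 in the authors' deposited table. The difference between both ribosomes was not tested.

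**Figure D5:**
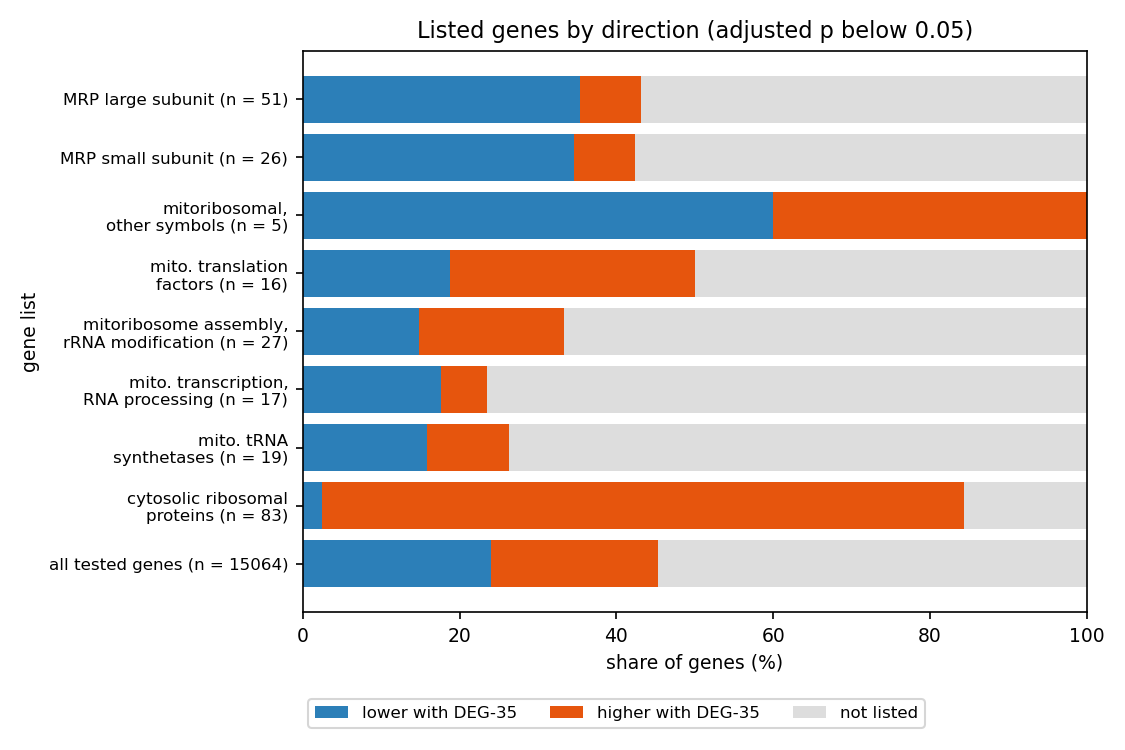
Share of genes (x axis, %) that were lower, higher or not listed, by gene list (y axis, number of genes in brackets, for lists the genes in RefSeq). Rows are MRP genes by subunit, lists of mitochondrial gene expression, cytosolic ribosomal proteins and all tested genes. The row for transcription and RNA processing also holds DNA replication genes, and that for translation factors also holds helper proteins. Lower genes make up 35.3% of the large and 34.6% of the small subunit, 2.41% of the cytosolic ribosomal proteins and 24.0% of all tested genes; shifting all values up by 0.3 would leave 8 lower genes in the large and 6 in the small subunit.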

How the data were processed

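RNA was extracted with a column kit and mRNA libraries were prepared with a SMARTer kit (per the labels). The submitters' processing notes name hg19, STAR, featureCounts and DESeq2, without versions or options. The authors deposited 1 table of 6831 genes, whose values are log2 fold changes, p-values and adjusted p-values per the file headers; no counts were used here and library depth is unknown.

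The members and gene lists were chosen with earlier results of these data known. The number of tests was taken from adjusted p times rank divided by p over 2789 genes with a p above 1e-04, which lay within 0.0413% of 15064. Implied SEs are the size of the log2 fold change over the normal quantile for the two-sided p, assuming a Wald test. Their calculation was checked on data simulated under this assumption, so the check cannot test the assumption itself. No gene was tested anew and no list was tested. Symbols were matched to RefSeq (GRCh38.p14): 6269 directly, 430 by synonym and 132 not at all, so unlisted genes may not have been tested or did not pass. Members of the family were matched by symbol alone, so one listed under an older symbol would count as unlisted. Overlaps came from GENCODE release 29 on GRCh38, neighbouring starts from the RefSeq promoter table, with order and strand only. Every listed member may be named. Full statistics go to the 6 largest rises and falls and to the 6 smallest and 3 largest adjusted p-values. For each other mitochondrial list they go to the 3 smallest adjusted p-values and the leading member against the majority. A gene that this rule takes is not reported here. Neighbours, AURKAIP1, GADD45GIP1 and the 2 lower cytosolic genes were named after their values were seen. The rule was not applied to the cytosolic list, so none of its 68 risers is named. The software was SciPy 1.17.1, NumPy 2.4.6, pandas 2.3.3 and Matplotlib 3.10.9 in Python 3.11.15.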

Additional observations from a re-analysis of the deposited data

How the results depend on the processing

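The count of 33 listed coding members (27 lower, 6 higher, median -0.27) stayed within 1.5 times, in each direction, at an adjusted p below 0.01, an implied SE of at most 0.1, with mitoribosomal proteins of other symbols added, and without members that overlap or copy other genes, the last settings chosen after seeing the data. The number of lower members was 18, at the edge of that range, at an adjusted p below 0.01 and without members overlapping a listed gene. The count of 33 fell to 8, with 8 lower, 0 higher and a median of -0.40, under Bonferroni adjustment, and to 0 (0 lower, 0 higher) with a minimum of 0.5 for the absolute log2 fold change, since these settings are stricter. Shifting all values up by 0.3 gave 14 lower and 19 higher and a reversed median of 0.029 (large subunit 8 lower and 14 higher, small subunit 5 higher); shifting them down by 0.3 gave 0 higher and a median of -0.57 (0 higher in either subunit). Centring on the median of listed genes, a shift of 0.19, gave 10 higher and a median of -0.079 (4 higher in the small subunit). At an adjusted p below 0.01 the large subunit had 11 lower members and the small subunit 1 higher. The shifts act on listed genes alone, so none enters or leaves. Of the comparisons for other lists, 31 stayed within 1.5 times and 17 moved. No paired analysis was possible because the table has no values per library, although the sample titles number the replicates 1 to 3 in both groups; leaving out replicates was not run for the same reason. Depth is unknown, so a member not listed cannot be called unchanged.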

Other observations

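Entries with a hyphen in the symbol were left out of the family by rule. MRPL23-AS1, named as antisense to MRPL23, stood at a log2 fold change of 2.08 ± 0.587 (implied SE) in the authors' deposited table, with an adjusted p of 0.00135, while MRPL23 itself was not listed. URGCP-MRPS24, a readthrough gene, was at -0.21 ± 0.0841 (adjusted p = 0.0315) there, in the authors' deposited table, and MRPS24, whose exons it shares, was at -0.21 ± 0.0873.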
